A study of Mus musculus with 6 samples.

Results

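The genes described here are 10 components of the circadian clock, Per1, Per2, Per3, Cry1, Cry2, Clock, Nr1d1, Nr1d2, Dbp and Tef, among the 32285 genes counted in single cells of the mouse striatum. The members were chosen by name, and all 10 were present in the count table. The cells came from wild type male C57BL/6 mice at postnatal day 3 (P3, 3 libraries) and at 3 months (3m, 3 libraries). Striatal tissue without the subventricular zone was dissociated, enriched for astrocytes with magnetic beads against the surface antigen ACSA2, and sequenced with the 10x Genomics 3′ chemistry. Each preparation pooled the tissue of several animals. Animals were kept under a 12/12 h light and dark cycle. The hour of dissection was not given in the sources used here, so that age and the time of day of dissection cannot be told apart between the P3 and the 3m libraries. Cell classes compared within a library share that hour. A difference between them holds for that unknown hour and need not be one of the mean level over the day.

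The clock is a feedback loop of transcription that runs in nearly every cell type. CLOCK and its partner BMAL1 (encoded by Arntl) bind E-boxes and activate the Period and Cryptochrome genes, whose proteins return to the nucleus and block CLOCK and BMAL1. The nuclear receptors REV-ERBα and REV-ERBβ (Nr1d1 and Nr1d2) form a second loop by repressing Arntl and Clock, and the PAR bZIP factors DBP and TEF carry the rhythm to other genes through D-boxes. Astrocytes are known to hold clocks of their own, which in the hypothalamus take part in setting daily behaviour.

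The promoters of 6 members are shown, 5 that were called higher with age in astroglia (Per3, Nr1d1, Nr1d2, Dbp and Tef) and Cry1, which was not, to let the letters of the elements be read beside the values. Each sequence is the 250 bases before the annotated start, read 5′ to 3′ on the strand of the gene from RefSeq (GRCm38.p6). Capitals mark a match to the E-box CACGTG, the related E-prime box CACGTT, which reads AACGTG from the opposite strand, the D-box in its forms TTATGTAA and TTACGTAA, or the AGGTCA half-site of nuclear receptors, each searched on both strands.
Per3 (chr4:151044666-151044915, minus strand): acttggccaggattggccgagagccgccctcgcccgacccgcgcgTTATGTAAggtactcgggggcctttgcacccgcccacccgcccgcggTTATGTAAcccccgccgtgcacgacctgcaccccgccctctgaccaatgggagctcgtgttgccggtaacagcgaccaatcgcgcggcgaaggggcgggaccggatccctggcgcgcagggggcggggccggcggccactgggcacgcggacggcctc
Cry1 (chr10:85185055-85185304, minus strand): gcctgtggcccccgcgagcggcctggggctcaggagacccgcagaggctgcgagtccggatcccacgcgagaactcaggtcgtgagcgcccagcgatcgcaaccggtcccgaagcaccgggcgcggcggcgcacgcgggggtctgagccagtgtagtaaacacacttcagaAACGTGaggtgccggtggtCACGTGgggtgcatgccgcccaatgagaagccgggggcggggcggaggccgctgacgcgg
Nr1d1 (chr11:98775378-98775627, minus strand): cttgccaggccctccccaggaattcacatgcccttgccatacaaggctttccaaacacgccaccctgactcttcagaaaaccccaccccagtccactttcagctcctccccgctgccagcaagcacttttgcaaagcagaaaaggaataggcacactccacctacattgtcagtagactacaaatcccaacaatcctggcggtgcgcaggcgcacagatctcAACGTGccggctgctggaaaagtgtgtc
Nr1d2 (chr14:18239107-18239356, minus strand): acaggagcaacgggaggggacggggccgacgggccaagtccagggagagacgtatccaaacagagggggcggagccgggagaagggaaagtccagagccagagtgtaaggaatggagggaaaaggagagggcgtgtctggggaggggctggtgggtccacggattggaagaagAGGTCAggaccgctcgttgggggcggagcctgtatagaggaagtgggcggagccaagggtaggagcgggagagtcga
Dbp (chr7:45704997-45705246, plus strand): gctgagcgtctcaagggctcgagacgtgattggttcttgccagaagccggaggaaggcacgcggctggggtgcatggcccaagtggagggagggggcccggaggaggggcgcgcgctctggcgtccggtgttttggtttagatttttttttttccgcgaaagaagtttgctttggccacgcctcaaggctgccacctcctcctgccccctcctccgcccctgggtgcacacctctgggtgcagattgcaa
Tef (chr15:81802423-81802672, plus strand): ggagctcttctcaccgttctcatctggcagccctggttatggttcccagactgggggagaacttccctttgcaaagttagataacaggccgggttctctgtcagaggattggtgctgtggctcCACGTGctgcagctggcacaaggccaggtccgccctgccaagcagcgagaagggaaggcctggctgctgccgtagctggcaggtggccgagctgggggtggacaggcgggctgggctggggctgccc
Both D-boxes of Per3 begin at -205 and -158 from the start. In Cry1 the E-box begins at -60 and the E-prime box at -79, in Nr1d1 the E-prime box begins at -28, in Nr1d2 the half-site begins at -77, and in Tef the E-box begins at -127. The Dbp window holds none of these letters. Among 32851 RefSeq promoters of the same 300-base length (250 before and 50 after the start), 7.15% held the E-box, 4.68% the E-prime box, 1.06% a D-box and 16.3% the half-site. These matches are a description of the sequence only. Of the members whose promoters are not shown, Per1 lies at chr11:69095217-69109960 (plus strand), Per2 at chr1:91415982-91459324, Cry2 at chr2:92403646-92434043 and Clock at chr5:76209868-76304792 (all minus strand, GRCm38). RefSeq windows were found for 9 of the 10 members, Per2 being the exception. Among the others, 1 Per1 window held an E-box at -166 and a half-site at -137, the Cry2 window an E-prime box at -166, and 1 Clock window a half-site at -119.

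After the filter on low-quality cells applied by the authors, 14373 cells remained, with 4714279 to 6606846 UMIs (unique molecular identifiers, 1 for each captured molecule) per 3m library and 32017013 to 37603430 per P3 library. Astroglial cells numbered 213, 546 and 359 at 3m and 1985, 3103 and 3786 at P3, with 1157485 to 1843998 and 22327104 to 30617140 summed UMIs. Among 8 astroglial markers (Aqp4, Aldh1l1, Slc1a3 and others) all 8 were found in the astroglia of every library, at 14610 to 15420 CPM summed at 3m and 5171 to 6282 CPM at P3. CPM stands for the UMIs of a gene per 1000000 UMIs of the same cells. In the first 3m replicate the median mitochondrial share of a barcode was 7.38%, against 1.24% to 4.65% elsewhere. Of 16653 distinct barcodes, 37 occurred in more than 1 library. All levels below are CPM over the summed cells of a class in a library, and classes with fewer than 10 cells in a library were left out there. UMIs were counted at the 3′ end, so that levels are compared for a gene between samples and never between genes.

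The question of the main comparison was how astroglia at the early postnatal stage differ from adult astroglia. In astroglia, 7 of the 10 clock genes were higher at 3m than at P3 and none was lower. The output genes Dbp and Tef, the nuclear receptor genes Nr1d1 and Nr1d2, and Per3, Cry2 and Per1 were called by edgeR's quasi-likelihood test, at a Benjamini-Hochberg adjusted p up to 0.05 and a log2 fold change of 1 or more in size. Cry1 and Clock were not, and Per2 passed the adjusted p but not the fold, so that 8 members were higher by the adjusted p alone, where 23.3% of genes were. Of all 13530 genes tested, 15.8% were called higher and 16.3% lower. The median log2 fold change of the 10 members was 1.78, against -0.04 over all genes tested.

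**Figure D1:**
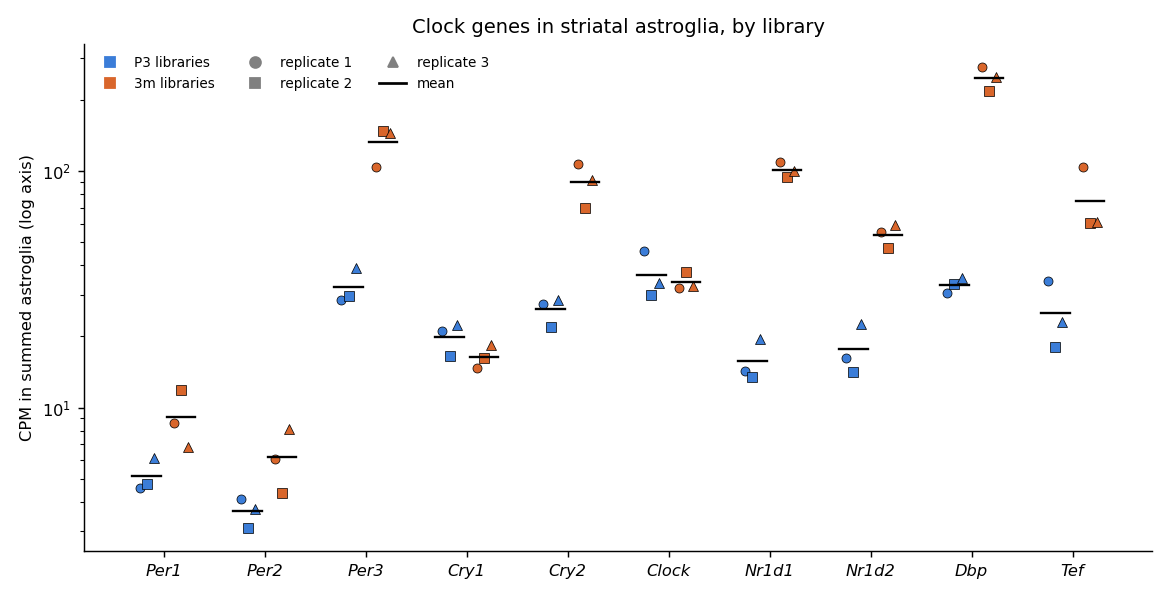
CPM (log axis) of each clock gene in the summed astroglia of each library. Blue points are the 3 P3 libraries and orange points the 3 3m libraries, with the replicate given by the shape and the mean by a line. The 3m points of Dbp (219 to 276 CPM) lie above all P3 points (30.5 to 35.3 CPM), while those of Clock lie among the P3 points.

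Among the output genes, Dbp, a PAR bZIP activator with a strong daily rhythm in most tissues, stood at 276, 219 and 251 CPM in the 3m replicates and at 30.5, 33.3 and 35.3 CPM in the P3 replicates. The groups did not overlap, and the replicates of each age lay close together. The difference was 8.54-fold (log2 fold change 3.09, SE 0.17, adjusted p = 2.14e-08), the largest of the 10 members. Tef, a relative of Dbp that binds the same D-box, was measured at 104, 60.2 and 61.1 CPM at 3m and at 34.5, 18.0 and 23.0 CPM at P3. The first replicate was the highest at both ages, and the groups did not overlap (3.37-fold, log2 1.75, SE 0.25, adjusted p = 7.51e-05). Both rose in adult astroglia.

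Nr1d1, the gene of the haem-binding repressor REV-ERBα, stood at 109, 94.9 and 101 CPM at 3m and 14.3, 13.4 and 19.6 CPM at P3. Its difference was 7.36-fold (log2 2.88, SE 0.17, adjusted p = 4.66e-08) with no overlap. Nr1d2, which encodes REV-ERBβ, had 55.3, 47.2 and 59.1 CPM at 3m and 16.2, 14.2 and 22.5 CPM at P3. It too rose, by 3.49-fold (log2 1.80, SE 0.19, adjusted p = 6.12e-06). In both genes the third P3 replicate was the highest of its age and remained far under the lowest 3m replicate.

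The negative limb did not move as one. Per3, a Period gene whose loss leaves the core loop largely running, had 105, 148 and 145 CPM at 3m and 28.6, 29.6 and 38.8 CPM at P3, a 4.71-fold difference (log2 2.24, SE 0.19, adjusted p = 1.04e-06). Cry2, a cryptochrome repressor, stood at 107, 70.0 and 91.7 CPM at 3m and at 27.5, 22.0 and 28.5 CPM at P3 (3.91-fold, log2 1.97, SE 0.18, adjusted p = 1.61e-06). In both genes each 3m replicate lay well above each P3 replicate. Cry1, the cryptochrome that represses more strongly, gave 14.7, 16.3 and 18.3 CPM at 3m and 21.1, 16.5 and 22.3 CPM at P3. Its groups overlapped, and the log2 difference was -0.07 (SE 0.20, 95% interval -0.47 to 0.33, adjusted p = 0.795); its sign changed without the third P3 replicate and after thinning each library's sum to the smallest total.

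Per1 and Per2, the Period genes that respond to light and hormones in many tissues, were sparse. Per1 had 8.64, 11.9 and 6.79 CPM at 3m and 4.57, 4.74 and 6.10 CPM at P3, from 42 UMIs in all 3m astroglia. The lowest 3m and the highest P3 replicate lay close to each other. Per1 was called higher (2.07-fold, log2 1.05, SE 0.30, adjusted p = 0.0113), but without the second 3m replicate the log2 difference was 0.71 with an adjusted p of 0.134. Per2 stood at 6.05, 4.34 and 8.15 CPM at 3m and 4.12, 3.10 and 3.74 CPM at P3 (log2 0.93, SE 0.35, adjusted p = 0.0404), from 27 UMIs at 3m. Its 3m replicates were all above the P3 replicates, by a small margin in the second. Over the alternative settings the log2 difference of Per2 ran from 0.20 to 1.12, and its adjusted p reached 0.501.

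On the positive limb, Clock, which encodes the activator that pairs with BMAL1, was measured at 32.0, 37.4 and 32.6 CPM at 3m and 45.8, 30.0 and 33.5 CPM at P3. The 3m values fell inside the range of the P3 values. The log2 difference was 0.10 (SE 0.20, 95% interval -0.28 to 0.49, adjusted p = 0.687), and its sign changed with scaling to library totals alone. Its partner Arntl, no member of the list, did not pass the test either (log2 0.30, SE 0.19, adjusted p = 0.198).

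Of 21 other clock genes, 20 could be tested in astroglia, of which 8 were higher and 2 lower at 3m; their median log2 fold change was 0.57. Among the higher were Npas2, the paralogue of Clock (log2 3.82, SE 0.36, adjusted p = 2.24e-06), Hlf, another PAR bZIP factor (log2 2.49), the nuclear receptor genes Rora (log2 1.33) and Rorb (log2 1.97), the repressor gene Bhlhe41 (log2 2.12), Cipc, which encodes an inhibitor of CLOCK (log2 1.80), and the deubiquitinase gene Usp2 (log2 1.46). Lower were Nfil3, which encodes a repressor that competes with DBP for the D-box (log2 -2.25, SE 0.72, adjusted p = 0.0199), and Timeless (log2 -4.30, SE 0.61, adjusted p = 8.16e-05), a gene known for its part in DNA replication. All 3 PAR bZIP genes thus were higher at 3m.

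Gene groups that respond to handling or hormones moved with age in the same sums. Immediate early genes (Fos, Jun, Egr1 and others) were lower in adult astroglia, 9 of 9 passing the test, with a sum of 297 to 353 CPM against 3645 to 4688 CPM at P3. Among 12 glucocorticoid-responsive genes, 4 were higher (Sult1a1, Zbtb16, Mt2 and Tsc22d3) and 2 lower (Fkbp5 and Sgk1), with a sum of 1659 to 1764 CPM at 3m, most of it Mt2, and 657 to 900 CPM at P3. The summed level of 8 oligodendrocyte markers in astroglia was 843 to 2089 CPM at 3m and 125 to 145 CPM at P3, with Mog and Opalin at 0 in P3 astroglia. The part of the first 2 groups in the clock gene differences was not tested. Without the astroglial cells that held UMIs of 2 or more of the genes Mog, Mag, Mobp, Opalin and Cldn11, 7 members were called higher as before.

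Genes that share a locus with a member were measured too, since the strand used in counting was not stated. Dbp shares 539 exonic bases with Sphk2 on the opposite strand, and Sphk2 had 6.51 to 9.51 CPM in 3m and 10.9 to 12.6 CPM in P3 libraries. Nr1d1 shares 263 exonic bases with Thra on the opposite strand (91.6 to 171 CPM at 3m, 189 to 241 CPM at P3). Neither was higher in adult astroglia, in contrast to Dbp and Nr1d1. Tef shares 193 exonic bases with Gm17597 on the opposite strand, which was higher at 3m (3.40 to 10.4 CPM against 0.36 to 0.49 CPM). Per3 overlaps the gene Camta1 on the same strand with no shared exonic base.

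The difference was also seen as a share of cells. When each cell was thinned to 2000 UMIs, Dbp was found in 38.0% ± 2.4 of 3m astroglia and 7.58% ± 0.76 of P3 astroglia (SD, n = 3 libraries each). Nr1d1 was found in 16.9% ± 2.0 and 3.55% ± 0.72, Per3 in 24.0% ± 3.7 and 7.54% ± 1.41, and Cry2 in 15.4% ± 1.6 and 5.70% ± 0.99. For these 4 genes the libraries of both ages did not overlap. Clock was found in 7.38% ± 1.3 of 3m and 7.78% ± 1.85 of P3 cells, and Cry1 in 3.43% ± 0.74 and 4.15% ± 0.76, with overlapping libraries. The thinning left out 212 of 1118 cells at 3m and 1113 of 8874 at P3 that were shallower. Without it the shares of Dbp were 56.6% ± 8.9 and 22.4% ± 3.9, at median depths of 2977 to 5326 UMIs per 3m cell and 5456 to 9665 per P3 cell.

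**Figure D2:**
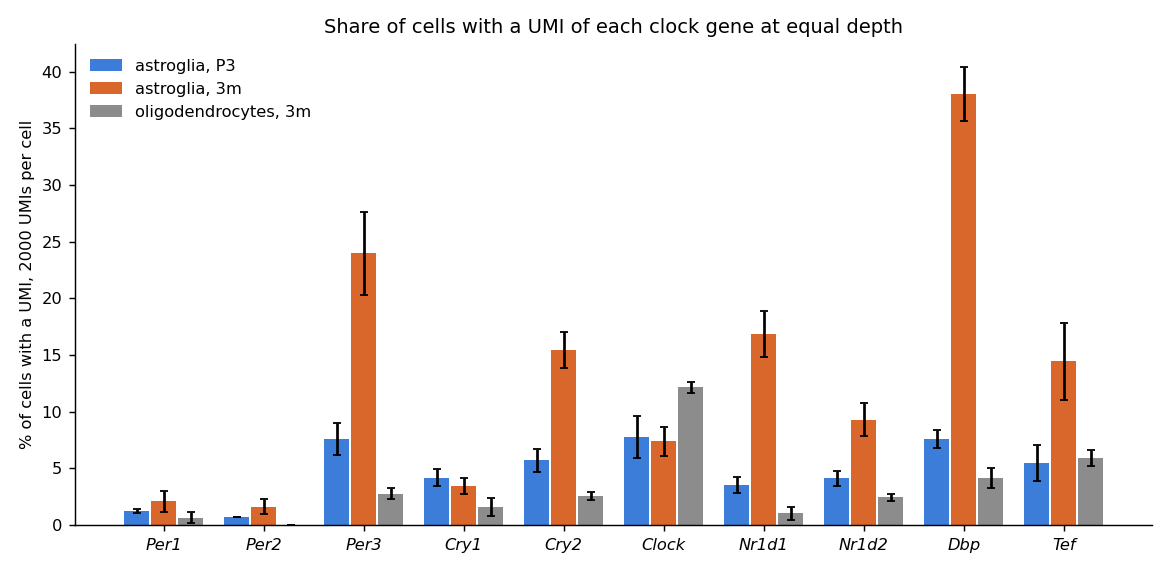
Share of cells with at least 1 UMI of each clock gene after thinning every cell to 2000 UMIs, in P3 astroglia (blue), 3m astroglia (orange) and 3m oligodendrocytes (grey). Bars are means of 3 libraries and error bars are SD; Dbp reached 38.0% of 3m astroglia, 7.58% of P3 astroglia and 4.11% of 3m oligodendrocytes.

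Within the same 3m libraries, most clock genes were lower in oligodendrocytes than in astroglia, a contrast that shares preparation and hour of dissection. Of 9 members tested, 7 were called lower in the 1731 oligodendrocytes (474, 735 and 522 cells) than in the astroglia, and none higher; of all 10367 genes, 24.0% were called lower and 17.7% higher. Clusters of both classes were built from the expression of these same cells. The oligodendrocyte sums held 2711471 to 4665156 UMIs per library. Nr1d1 stood at 4.72, 6.82 and 4.79 CPM in oligodendrocytes, against 94.9 to 109 CPM in astroglia (18.4-fold lower, log2 -4.20, SE 0.18, adjusted p = 4.47e-10). Dbp was lower by 12.1-fold (20.3 ± 3.3 CPM, log2 -3.59, SE 0.14, adjusted p = 2.05e-10) and Per3 by 10.8-fold (12.1 ± 2.9 CPM, log2 -3.44, SE 0.14, adjusted p = 2.39e-10). No library of oligodendrocytes came near an astroglial one in these 3 genes.

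Cry2 (log2 -2.84), Nr1d2 (log2 -1.83), Per1 (log2 -1.32) and Tef (log2 -1.05) were lower as well. Tef fell short of the fold threshold without the first 3m replicate (log2 -0.86), in which its astroglial level was highest. Cry1 had 9.87 ± 2.23 CPM in oligodendrocytes and 16.4 ± 1.8 CPM in astroglia (log2 -0.75, SE 0.25, adjusted p = 0.0190), under the fold threshold. Clock went the other way, with 56.2, 55.3 and 57.9 CPM in oligodendrocytes and 32.0 to 37.4 CPM in astroglia (1.65-fold, log2 0.72, SE 0.15, adjusted p = 0.000753), also under the fold threshold. Per2 had 2 UMIs in all oligodendrocytes against 27 in astroglia, too few for the test. The ratio of its summed levels, astroglia over oligodendrocytes, was 33.8 with a 95% counting interval of 8.48 to 293. Arntl was lower in oligodendrocytes (log2 -2.37, SE 0.24, adjusted p = 1.60e-06).

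**Figure D3:**
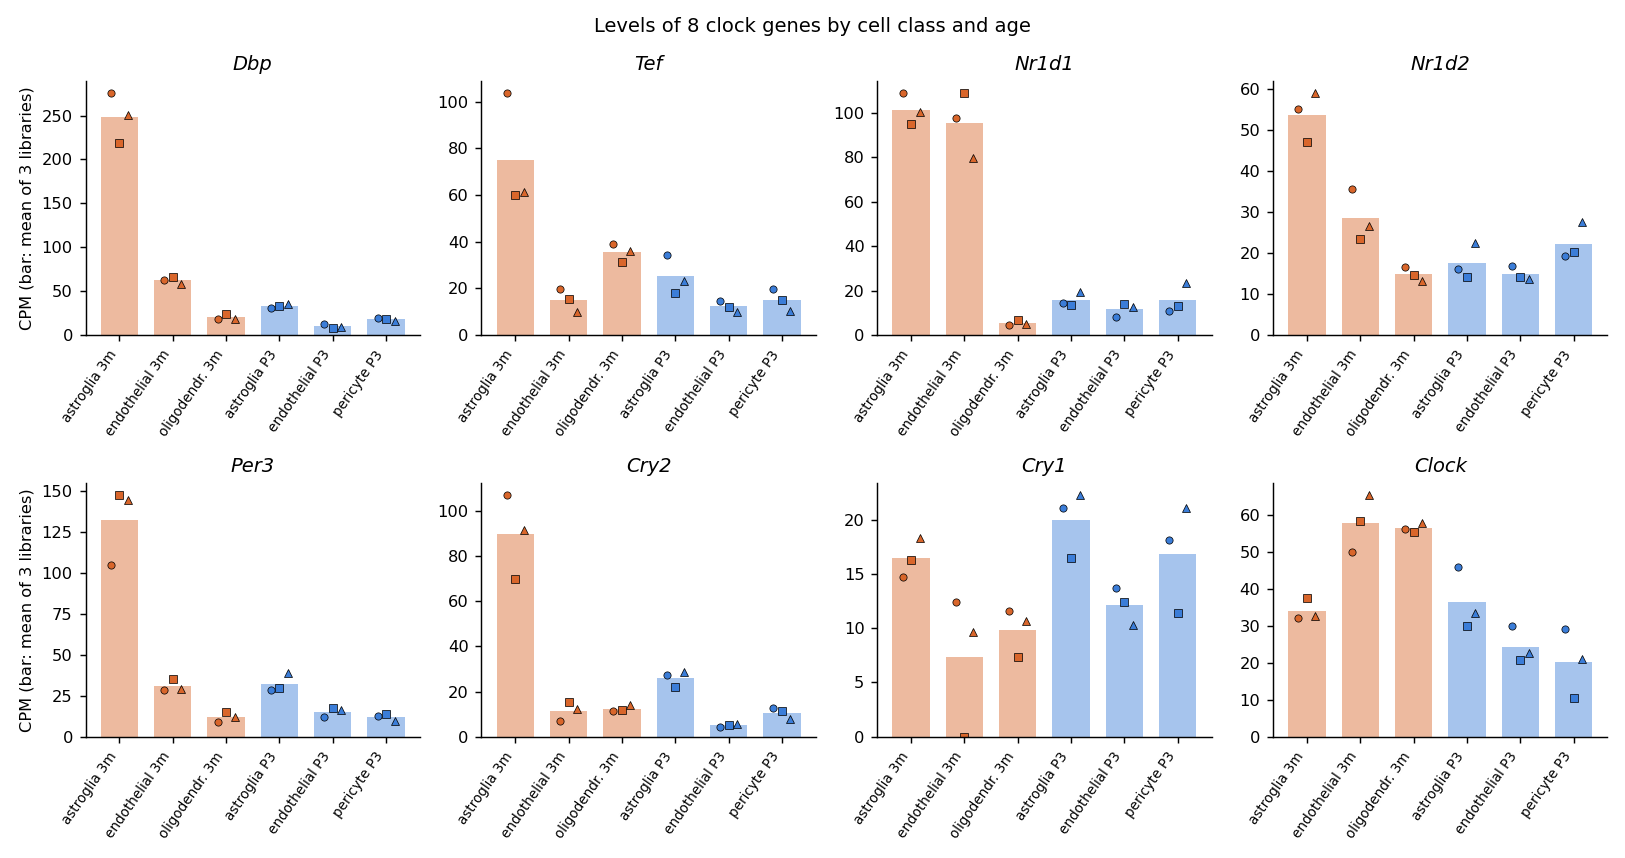
CPM of 8 clock genes in the astroglia, endothelial clusters and oligodendrocytes of 3m libraries (orange) and in astroglia, endothelial clusters and pericytes of P3 libraries (blue). Points are libraries and bars their mean on a linear axis from 0; among the classes shown Dbp is highest in 3m astroglia (219 to 276 CPM), Nr1d1 is high in 3m astroglia and 3m endothelial clusters, and Clock is highest in 3m endothelial clusters and oligodendrocytes.

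Endothelial clusters were the other class with enough cells at both ages, 165 cells at 3m and 1294 at P3. Different clusters held them: END_17 nearly all those at 3m, and END_7, END_12 and END_13 those at P3, with 346 of the 349 END_12 cells in the third P3 replicate. Summed pericyte markers were also higher at 3m (6296 to 6658 CPM) than at P3 (1838 to 3475 CPM) in these clusters, and their part in the result was not tested. The endothelial sums held 256977 to 562163 UMIs per 3m library and 4356156 to 8483587 per P3 library. Of 9 members tested, 3 were called higher at 3m and none lower, where 11.0% of 10389 genes were called higher. The median log2 fold change of the 9 was 0.90, against -0.03 over all genes.

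In the endothelial clusters Nr1d1 had 97.8, 109 and 79.9 CPM at 3m and 8.18, 13.8 and 12.8 CPM at P3 (7.64-fold, log2 2.93, SE 0.26, adjusted p = 1.21e-06). Dbp had 62.2 ± 4.0 CPM at 3m and 9.79 ± 2.20 CPM at P3 (5.88-fold, log2 2.56, SE 0.25, adjusted p = 2.65e-06). The 3m and P3 libraries did not overlap in either gene. Clock, unlike in astroglia, rose from 29.9, 20.7 and 22.5 CPM at P3 to 49.8, 58.4 and 65.4 CPM at 3m (2.21-fold, log2 1.14, SE 0.23, adjusted p = 0.00178). Without the third 3m replicate its log2 difference was 0.96, under the fold threshold. Per3 (log2 0.89, adjusted p = 0.0417) and Nr1d2 (log2 0.90, adjusted p = 0.0249) passed the adjusted p alone, which 15.2% of genes passed with a higher level at 3m. Per1 (log2 -0.0026), Cry1 (log2 -0.55), Cry2 (log2 0.97) and Tef (log2 0.23) did not pass it. Their 95% intervals were -0.95 to 0.94 for Per1, -1.51 to 0.41 for Cry1, 0.06 to 1.88 for Cry2 and -0.49 to 0.96 for Tef. In all 3m endothelial cells they had 9, 11, 13 and 19 UMIs in that order, so that no absence of change is read. The 3m libraries of Cry2 (7.12 to 15.6 CPM) lay above its P3 libraries (4.37 to 5.66 CPM), while those of Per1, Cry1 and Tef overlapped. The signs of Per1 and Tef changed without the first 3m replicate. In the same clusters Arntl was higher at 3m by 1.75 on the log2 scale (SE 0.33, adjusted p = 0.000965), together with Hlf (log2 1.84) and Rora (log2 1.47).

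The difference between both age effects was tested in a single model of both classes with each library as a block. For 3 of 10 members the age effect differed between endothelial clusters and astroglia, where 18.0% of 12801 genes did. Per2 is among the 10, but it had 1 UMI in all 3m endothelial cells. It did not pass the filter on low counts in that class alone, so that nothing is read from its value. Per3 rose less in endothelial clusters (difference of log2 fold changes -1.34, SE 0.27, adjusted p = 0.00518), and so did Tef (-1.67, SE 0.35, adjusted p = 0.00684). Clock rose more (0.99, SE 0.23, adjusted p = 0.0108). For Nr1d1 the difference was 0.00 with a 95% interval of -0.46 to 0.46, and for Dbp it was -0.63 (95% interval -1.12 to -0.15, adjusted p = 0.0999). The call for Tef was lost without the first 3m replicate (adjusted p = 0.0689) and that for Clock without the third (adjusted p = 0.0757), whereas 5 members differed without the third P3 replicate.

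**Figure D4:**
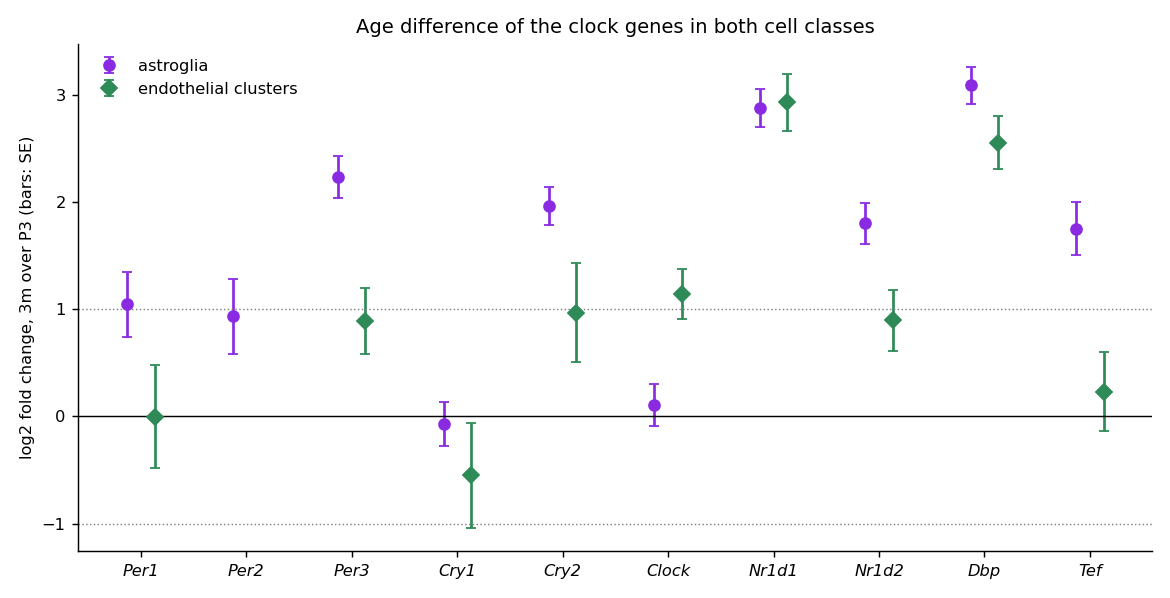
Log2 fold change of each clock gene, 3m over P3, in astroglia (circles) and in endothelial clusters (diamonds), with SE bars from the fitted model; dotted lines mark a log2 change of 1 in either direction. Both classes sit near 2.9 for Nr1d1, while Clock is near 0.1 in astroglia and 1.1 in endothelial clusters; Per2 could not be tested in the latter.

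Microglia gave few cells, 17 to 23 per 3m library and 34 to 46 per P3 library, and no member passed the filter on low counts in them (10.1% of the 2679 genes tested were called). Their sums held 53392 to 101265 UMIs per 3m library and 280861 to 329377 per P3 library. In the 3m libraries Dbp had 16.5 ± 15.2 CPM (5 UMIs) and in the P3 libraries 19.4 ± 8.9 CPM (17 UMIs), a ratio of 1.04 with a 95% counting interval of 0.299 to 2.93. Dbp entered a model of both classes only through its astroglial counts, so that its fitted difference of age effects there, microglia minus astroglia (log2 -3.31, SE 0.72), is given as a value and nothing was read from it. Cry1 had 7 UMIs in P3 microglia (6.90 to 9.11 CPM) and none in 3m microglia, where its level was not detectable at this depth. Its ratio, 3m over P3, had a 95% counting interval of 0 to 2.44. Per2 had no UMI at either age and was not detectable.

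The order of the levels over classes and ages was read as a description. Only classes with at least 10 cells in more than 1 library of an age were ordered. This left out the cluster LOW_23, with 14 cells in 1 3m library and 27 in 1 P3 library. It had 66.2 CPM of Clock at 3m, and at P3 85.8 CPM of Cry2, 79.7 CPM of Per3, 70.5 CPM of Dbp and 36.8 CPM of Cry1, above classes ordered below. That P3 value of Cry2 lay inside the range of 3m astroglia (70.0 to 107 CPM). Per3 was highest in 3m astroglia (132 ± 24 CPM), and no library of the next class, P3 astroglia (32.3 ± 5.7 CPM), reached it. For Dbp, 3m astroglia (248 ± 28 CPM) overlapped with a cluster of 68 adult cells that the annotation names LOW_21 (236 ± 60 CPM), followed without overlap by 3m endothelial clusters (62.2 ± 4.0 CPM) and P3 astroglia (33.1 ± 2.4 CPM). Nr1d1 was highest in LOW_21 (183 ± 55 CPM), then in 3m astroglia (101 ± 7 CPM) and 3m endothelial clusters (95.6 ± 14.6 CPM), which overlapped with each other. P3 pericytes (15.8 ± 6.6 CPM), P3 astroglia (15.8 ± 3.3 CPM) and P3 endothelial clusters (11.6 ± 3.0 CPM) overlapped in Nr1d1. Cry2 had its highest level in 3m astroglia (89.6 ± 18.7 CPM), in overlap with LOW_21 (69.6 ± 8.3 CPM). The LOW_21 sums were small, 39449 to 66435 UMIs per library, and held 34 UMIs of Dbp, 28 of Nr1d1 and 10 of Cry2 in all. Clock was highest in 3m endothelial clusters (57.9 ± 7.8 CPM) and oligodendrocytes (56.5 ± 1.3 CPM), which did not differ beyond their spread. Cry1 had 19.9 ± 3.1 CPM in P3 astroglia, 16.9 ± 5.0 CPM in P3 pericytes and 16.4 ± 1.8 CPM in 3m astroglia, which overlapped. P3 endothelial clusters (12.1 ± 1.7 CPM) lay below 3m astroglia without overlap. Mean Cry1 was lower in 3m oligodendrocytes (9.87 ± 2.23 CPM) and P3 microglia (7.71 ± 1.21 CPM). The oligodendrocyte libraries overlapped with those of the P3 endothelial clusters and of the microglia. P3 neurons (18.8 ± 29.0 CPM, 4 UMIs) and LOW_21 (10.0 ± 17.4 CPM, 2 UMIs) spread over this whole range.

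At P3 itself 3 of 10 members were called lower in endothelial clusters than in astroglia of the same libraries. This share was near that of all 14240 genes, of which 23.3% were called lower in the endothelial clusters. The 3 members were Cry2 (26.0 ± 3.5 CPM in astroglia against 5.10 ± 0.66 CPM, log2 -2.13, SE 0.16, adjusted p = 3.08e-05), Dbp (33.1 ± 2.4 against 9.79 ± 2.20 CPM, log2 -1.51, SE 0.16, adjusted p = 0.000158) and Per2 (3.66 ± 0.51 against 1.40 ± 0.21 CPM, log2 -1.20, SE 0.29, adjusted p = 0.00911). By the adjusted p alone 7 members were lower in the endothelial clusters, where 34.9% of the genes were, with Tef (log2 -0.81), Per3 (log2 -0.87), Cry1 (log2 -0.50) and Clock (log2 -0.34) in addition. Per1 was the only member higher in them by the adjusted p (log2 0.67, adjusted p = 0.0183). Under alternative settings the adjusted p reached 0.0575 for Cry1, 0.0963 for Clock and 0.116 for Per1, past the threshold. The call for Per2 was lost without the first P3 replicate (adjusted p = 0.0513), and without the second P3 replicate 5 members were called lower, Per3 and Tef in addition.

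Clock transcripts made up a smaller share of the UMIs in dividing cells among P3 astroglia. The sub-clusters 6 and 8, which the study describes by the proliferation marker Mki67, held 1177 cells and were compared with the non-dividing telencephalic sub-clusters 0, 1, 2, 9 and 11 of the same libraries. These sub-clusters too were built from the expression of the cells compared. All 10 members were lower at an adjusted p of at most 0.05, where 31.7% of 12721 genes were. Under alternative settings the adjusted p reached 0.258 for Cry1, 0.246 for Per1, 0.0958 for Per2 and 0.0720 for Clock, past that limit. The other members stayed within it under every alternative. With the fold threshold 2 members were called lower, where 7.58% of the genes were. Dbp stood at 12.2, 13.9 and 13.2 CPM in dividing and 33.5, 34.3 and 33.4 CPM in non-dividing cells (log2 -1.26, SE 0.10, adjusted p = 2.11e-13). Nr1d1 was at 6.85 to 8.52 CPM against 14.6 to 23.6 CPM (log2 -1.09, SE 0.13, adjusted p = 8.94e-09). In both genes the dividing cells were lower in each library. Smaller differences were those of Per3 (log2 -0.98), Cry2 (log2 -0.97), Per2 (log2 -0.89), Tef (log2 -0.88), Nr1d2 (log2 -0.54), Per1 (log2 -0.53), Clock (log2 -0.32) and Cry1 (log2 -0.28). The count of 2 became 5 without the second P3 replicate and 1, Dbp, without the third. With the dividing sub-clusters left out, 6 members remained called in the comparison of ages, all but Per1 of the 7.

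Sub-clusters that grouped with non-telencephalic cells of a reference dataset in the study, called here outside the telencephalon, were compared with telencephalic ones within each age. At P3 no member reached the fold threshold (17.7% of 13050 genes did), but 4 were higher outside the telencephalon by the adjusted p, where 25.5% of the genes were. Dbp had 81.9, 55.3 and 55.4 CPM outside and 33.5, 34.3 and 33.4 CPM inside the telencephalon (log2 0.72, SE 0.11, adjusted p = 6.71e-05). Nr1d2 (log2 0.59), Per3 (log2 0.54) and Cry2 (log2 0.48) went with it. At 3m no member of 8 tested was called (9.0% of 7787 genes were), and none passed the adjusted p; at an unadjusted p under 0.05, edgeR's test gave 1, Dbp. Dbp then had the opposite sign, 147, 173 and 171 CPM outside and 283, 264 and 266 CPM inside (log2 -0.67, SE 0.22, adjusted p = 0.0523). The first 3m replicate had 17 cells outside the telencephalon.

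Across the sub-clusters of P3 astroglia with at least 10 cells in a library, mean Dbp ran from 9.13 ± 2.22 CPM in sub-cluster 6 to 82.3 ± 42.2 CPM in sub-cluster 5, and mean Nr1d1 from 7.26 ± 1.97 CPM in sub-cluster 6 to 30.8 ± 8.3 CPM in sub-cluster 11. Among adult sub-clusters, Dbp ran from 106 ± 17 CPM in sub-cluster 16 to 321 ± 96 CPM in sub-cluster 7. The lowest adult mean of Dbp thus stood above the highest P3 mean, although the first P3 replicate alone reached 131 CPM in sub-cluster 5. Adult sub-cluster 14 came almost wholly from the first 3m replicate (182 of 184 cells), with 279 CPM of Dbp and 108 CPM of Per3. Sub-cluster 7 held 283 and 307 cells of replicates 2 and 3, with 264 and 267 CPM of Dbp and 166 and 147 CPM of Per3, and 14 cells of the first, with 432 CPM of Dbp and 66.5 CPM of Per3.

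The pseudotime trajectory of the authors runs from dividing progenitors to adult astrocytes in 20 bins. Many astroglial cells of both ages lay off this trajectory and had no bin. Of the cells with a bin, nearly all P3 cells lay in bins 2 to 14 and nearly all adult cells in bins 15 to 19. Pseudotime and age thus cannot be told apart at that border. The exceptions, 2 cells of the second 3m replicate in bins 11 and 12, 2 in bins 13 and 14, and 1 to 6 cells of each P3 library in bins 15 and 16, were too few for a sum of at least 10 cells. Pseudotime was computed from the expression of these same cells, and no test was made. Within the P3 libraries Dbp stood at 1.84, 7.47 and 11.0 CPM in bins 2 to 6 and at 34.9, 41.3 and 36.8 CPM in bins 13 and 14. All 3 libraries were higher at the later bins, by a margin above their spread. Per3 went from 5.97 to 13.5 CPM to 32.8 to 46.2 CPM, Nr1d1 from 2.75 to 8.04 CPM to 13.5 to 22.5 CPM, and Cry2 from 10.6 to 13.2 CPM to 24.2 to 32.6 CPM. In the adult bins 17 to 19 Dbp lay at 265 to 278 CPM and Nr1d1 at 100.3 to 107 CPM. The step from the last P3 bins to the adult bins was larger than the rise within P3 for Dbp and Nr1d1. Cry1 stood at 13.4 to 22.9 CPM in bins 2 to 6 and at 13.3 to 17.7 CPM in bins 17 to 19, and these ranges overlapped.

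**Figure D5:**
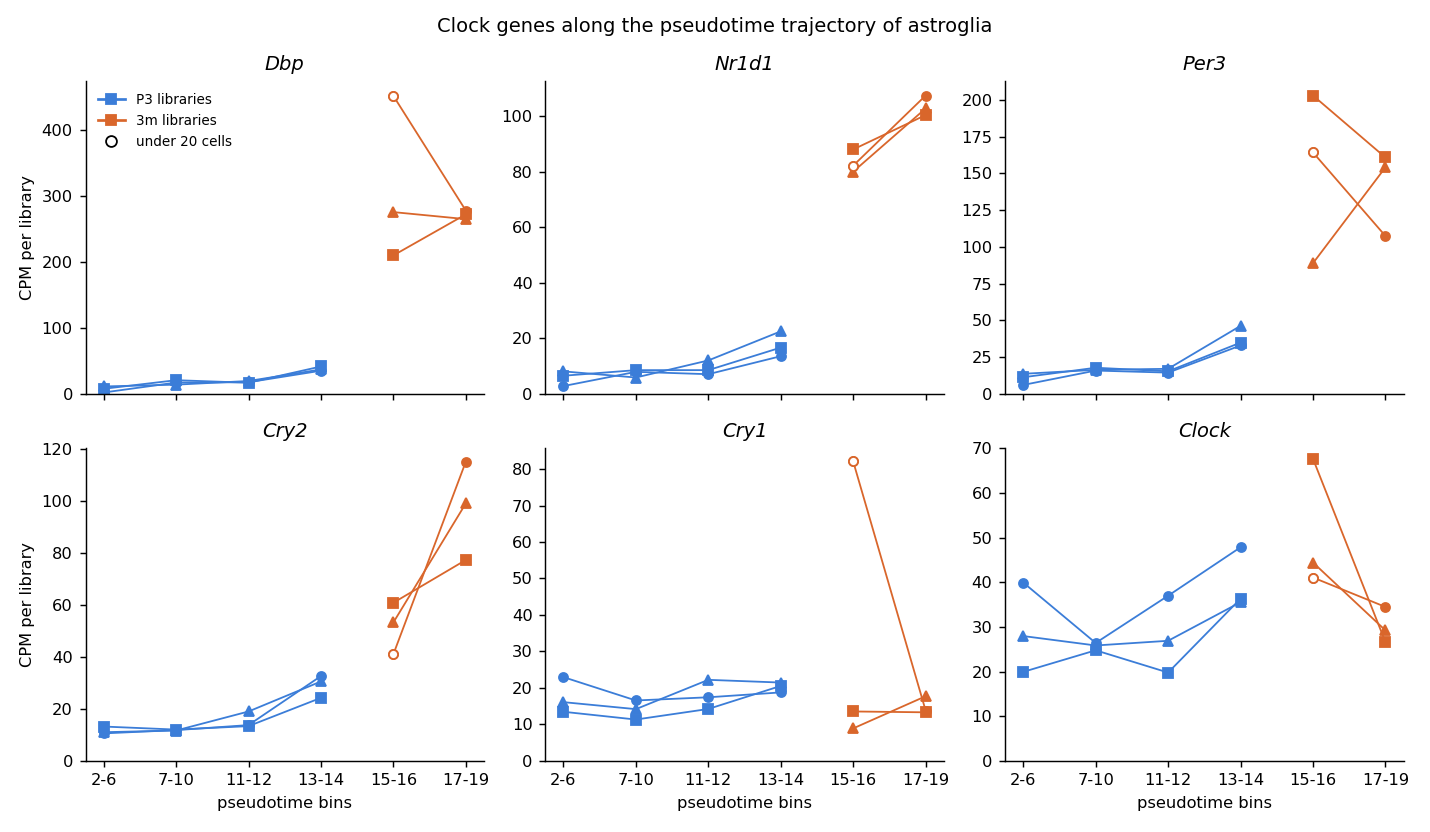
CPM of 6 clock genes per library in groups of pseudotime bins, for P3 (blue) and 3m (orange) libraries on linear axes from 0; open symbols are sums of fewer than 20 cells, as for the first 3m replicate in bins 15 and 16 (13 cells). Dbp stays at or under 41.3 CPM in all P3 groups of bins and lies at 210 CPM or more in all adult groups of bins.

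Over the 31 sums of a library and a cell class with at least 100000 UMIs, members varied together to different degrees. The highest Pearson correlation between members, on log2(CPM + 1), was 0.82 for Dbp and Tef, followed by 0.80 for Clock and Nr1d2, and the lowest was 0.09 for Per1 and Per2. These sums share libraries and depth, and the values are descriptions. Among 6381 genes with a mean of at least 20 CPM, the genes most like Dbp were Leng8 (r = 0.92), Dhrs7 (r = 0.91) and Slc41a1 (r = 0.89). Those most like Clock were Rc3h1 (r = 0.95), Smc5 (r = 0.92) and Cdc42bpa (r = 0.92), and those most like Nr1d1 were Ephx1 (r = 0.85), Syne1 (r = 0.78) and Pir (r = 0.78).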

How the data were processed

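Striatal cells of 3 P3 and 3 adult (3m) preparations were enriched for ACSA2 and sequenced with 10x Genomics 3′ chemistry, so that a UMI is counted once whatever the number of its reads. The authors made the deposited counts, raw UMIs per gene and cell, with Cell Ranger (build mm10), merged the libraries in Seurat (version 3.1.1 in the submitters' notes) and named cells after a filter of more than 500 genes and less than 10% mitochondrial UMIs, which 2317 barcodes did not pass. They formed 24 clusters and re-clustered the 11 astroglial ones into 17 sub-clusters. The deposited pseudotime score came from a Slingshot trajectory that the authors fitted to the astroglia and divided into 20 bins. Doublet removal was not given in the sources used here, and no caller was run. The strand setting of the counting was not given in the sources used here.

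UMIs were summed per library and cell class (10 cells or more) and tested with edgeR 4.0.16 (R 4.3.3; TMM scaling, filterByExpr, quasi-likelihood test, Benjamini-Hochberg adjustment over all genes tested). Classes of the same library were compared with the library as a block. The labels do not say that replicates were separate litters, so p-values measure the spread between these preparations. Exact permutation of 3 against 3 libraries cannot go below 0.10, and no such test was used. Intervals are at 95%, and those of UMI ratios cover counting error only. Pseudobulk depth is given with the results for astroglia, oligodendrocytes, endothelial clusters and microglia. On simulated counts with 200 genes changed 4-fold, 96.5% were recovered among 13530 genes for the comparison of ages in astroglia and 94.5% among 10367 for oligodendrocytes against astroglia. Alternatives were DESeq2 1.42.0, other scaling, no filter, thinning, other cell filters, and each replicate left out. Named genes were the 10 members by role, the other clock genes called in astroglia (1 of them is not reported here), and the 3 genes most like each of the 3 members with the highest mean. The members and all lists were chosen with earlier results of these data known.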

Additional observations from a re-analysis of the deposited data

Results flagged for a closer look

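The age effects of 4 values differed between cell classes by the test of the difference itself. For Dbp in microglia against astroglia the fitted difference of log2 fold changes was -3.31; Dbp did not pass the filter in microglia, had 5 UMIs there at 3m and entered through its astroglial counts, so that nothing is read from this value. In endothelial clusters against astroglia the differences were -1.34 for Per3, -1.67 for Tef and 0.99 for Clock. Pericyte markers, different clusters at each age, and 17 to 23 microglia per 3m library stood beside these differences, and their part was not tested.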

How the results depend on the processing

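Of 765 values of single members with a test recomputed under an alternative, 704 kept direction and call, 18 gained a call, 15 lost it and 28 changed sign. None of the 28 was past a threshold under the main settings. The 765 include the values of the model of microglia against astroglia. No member passed the filter on low counts in microglia, so that nothing is read from the stability of those values. With the replicate number as a block, 7 members were called in astroglia and 3 in endothelial clusters, as without it; deviations of same-numbered libraries correlated at 0.21, 0.10 and 0.04, and not every library correlated best with its own number. In astroglia 6 or 7 members were called under every alternative, and Per1 lost its call under 8 of them (log2 0.55 to 1.00).
Counts of members called moved by over 1.5 times in 3 comparisons and by at most 1 member in the others. Without scaling beyond library totals, 4 members were called lower in dividing P3 astroglia and 5 in P3 endothelial clusters; without the filter on low counts, 4 in dividing astroglia. With each replicate left out, these counts ran from 1 to 5 in dividing astroglia and from 2 to 5 in P3 endothelial clusters, and from 2 to 5 for age effects that differed between endothelial clusters and astroglia.
In log2, signs changed as follows. In astroglia by age, Clock was -0.092 without scaling and -0.017 without the filter, and Cry1 0.23 after thinning; leaving out replicates gave -0.036 to 0.31 for Clock and -0.22 to 0.023 for Cry1. In endothelial clusters by age, Per1 was 0.095 without scaling and 0.012 with the replicate block; leaving out replicates gave -0.32 to 0.46 for Per1 and -0.15 to 0.41 for Tef. For microglia against astroglia, Per1 was 0.012 and Nr1d1 0.12 without scaling; leaving out replicates gave -0.84 to 0.12 for Per1 and -1.08 to 5.75 for Nr1d1. For endothelial clusters against astroglia, Nr1d1 was -0.047 with RLE scaling, -0.063 without the filter, and -0.17 to 0.19 with replicates left out. For P3 regions, Per2 was 0.046 and Tef 0.011 without scaling, and Clock was -0.032 and Nr1d1 -0.034 without the filter; leaving out replicates gave -0.36 to 0.077 for Per2, -0.077 to 0.061 for Clock and -0.11 to 0.24 for Nr1d1. For P3 endothelial clusters over astroglia, Nr1d2 ran from -0.17 to 0.15. The cause was not tested.
Without scaling, the median of all genes in astroglia moved from -0.04 to -0.24, and the share of calls that were higher at 3m from 49.3% to 38.6%. Depth limits Per1, Per2 and the microglia most.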
